A study of Mus musculus with 3 samples.

Results

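The integrin subunits of myoblasts examined here are the 9 genes Itga3, Itga4, Itga5, Itga6, Itga7, Itgav, Itgb1, Itgb3 and Itgb5, taken with all of their probe sets on the array, which are 25 of the 20380 probe sets with 1 gene symbol. RNA levels were measured in C2C12, a line of mouse skeletal myoblasts, on 3 arrays: cells transfected with diacylglycerol kinase zeta (DGKzeta), a lipid kinase that phosphorylates diacylglycerol, cells that received enhanced green fluorescent protein (EGFP) as the transfection control, and untreated cells. All 3 samples carry the time 12 h, transfections used the FuGene method on cells plated 18 h earlier, and each group has 1 array, so differences are sizes without a replicate check, and p-values are not given. The sources used here do not give the share of cells that took up a construct, and in such bulk RNA fewer cells of a type and less RNA per cell cannot be told apart.

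Integrins are cell surface receptors made of 1 alpha and 1 beta subunit, which hold cells to the extracellular matrix and join it, through talin and its partners, to the actin cytoskeleton. The alpha subunit largely sets the ligand: the products of Itga3, Itga6 and Itga7 bind laminins, those of Itga5 and Itga4 bind fibronectin, and that of Itgav binds vitronectin and other proteins with an RGD motif. The beta subunit encoded by Itgb1 is the common partner of most of these alpha chains, whereas the products of Itgb3 and Itgb5 pair with the alpha v chain. In myoblasts, integrins serve attachment, spreading and migration, and the alpha 7 beta 1 pair is the main laminin receptor of muscle fibres.

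A probe set was taken as measured on an array when its intensity reached 107, the median of all values pooled, and values under this floor were set to it before log2 ratios were formed. The transfected gene, Dgkz, stood at 13466 in DGKzeta cells, against 1053 in EGFP cells and 1500.1 in untreated cells, by its brighter probe set. Of 9 myoblast markers 5 were measured on all 3 arrays (Myf5, Des, Cdh15, Ncam1 and Chrna1), while Myod1 and Pax7 were under the floor on each. Of 8 genes of differentiated muscle 0 were measured on all 3 arrays, and Acta1 alone reached the floor, with 96.9 in DGKzeta cells, 144 in EGFP cells and 146 in untreated cells. No marker of fibroblasts (5 genes), endothelium (5), leukocytes (6) or epithelium (4) was measured on all 3 arrays, and 1 of them, Csf1r at 121 in untreated cells, reached the floor on any. Their summed intensities were between 89.4 and 178 per list on the DGKzeta array, against 60.5 to 207 on the EGFP array and 39.8 to 259 on the untreated array. The ratio of the 3' to the 5' control probe set of Actb was 2.55 on the DGKzeta array, 1.43 on the EGFP array and 1.27 on the untreated array, and that of Gapdh was 0.931, 0.902 and 0.841 in the same order. The part of this difference between arrays in the ratios below was not tested.

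Sequences upstream of the transcript start are shown for Itga5, the member with the lowest ratios, for Itgav, the member with the highest, and for Itgb1, their shared partner, whose ratios were near 0. They are the 250 bases before a RefSeq start in the GRCm38.p6 build, 5′ to 3′ on the strand of the gene: chr15:103366792-103367041 (minus strand) for Itga5, chr2:83724147-83724396 (plus strand) for Itgav and chr8:128685404-128685653 (plus strand) for Itgb1. Capitals mark the GC box, GGGCGG or its reverse complement CCGCCC, and other letters are in lower case.
Itga5: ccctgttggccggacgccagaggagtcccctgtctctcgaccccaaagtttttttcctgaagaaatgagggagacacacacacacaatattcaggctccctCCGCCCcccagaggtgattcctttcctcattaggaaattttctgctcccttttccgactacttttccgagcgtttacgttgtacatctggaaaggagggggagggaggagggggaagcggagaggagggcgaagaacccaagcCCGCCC
Itgav: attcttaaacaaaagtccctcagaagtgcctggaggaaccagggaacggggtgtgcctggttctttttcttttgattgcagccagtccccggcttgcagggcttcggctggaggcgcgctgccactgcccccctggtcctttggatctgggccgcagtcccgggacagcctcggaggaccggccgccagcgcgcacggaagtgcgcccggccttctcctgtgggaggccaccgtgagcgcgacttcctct
Itgb1: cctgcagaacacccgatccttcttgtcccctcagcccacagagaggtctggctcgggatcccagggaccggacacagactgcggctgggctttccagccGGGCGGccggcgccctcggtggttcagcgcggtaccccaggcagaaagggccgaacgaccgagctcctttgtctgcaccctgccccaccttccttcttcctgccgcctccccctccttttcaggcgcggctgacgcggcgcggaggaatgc
The box was found 2 times in the Itga5 window, 0 times in that of Itgav and 1 time in that of Itgb1. Of the 9 members 6 had a window in the RefSeq table, and 5 of these held at least 1 box, among them Itga3 with 3 in its more distal window and Itgb5 with 3. At least 1 box was present in 32.7% of all 32851 windows of this length and for 68.6% of the 5309 genes measured on all 3 arrays that have a window. These matches are descriptions of the letters and no relation to the ratios was tested.

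Members differed first in whether they were measured at all. Of the 25 probe sets 13 were measured on all 3 arrays and 3 more on some of them, and these 16 cover 7 genes: Itga3, Itga5, Itga6, Itga7, Itgav, Itgb1 and Itgb5. The brightest probe set of each of the 7 was measured on all 3 arrays. Itga4, whose product binds the adhesion molecule VCAM-1 besides fibronectin, had 3 probe sets with intensities between 0.623 and 16.3 on all arrays. The single probe set of Itgb3, the beta subunit of the classical vitronectin receptor, read 6.13 in DGKzeta cells, 6.03 in EGFP cells and 8.23 in untreated cells. Both genes were thus not measured here, and no fold is given for either. Another 4 of the 6 probe sets of Itgb1 and 1 of the 3 of Itgav also lay under the floor on every array, between 1.24 and 69.2, although other probe sets of the same genes were bright.

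**Figure D1:**
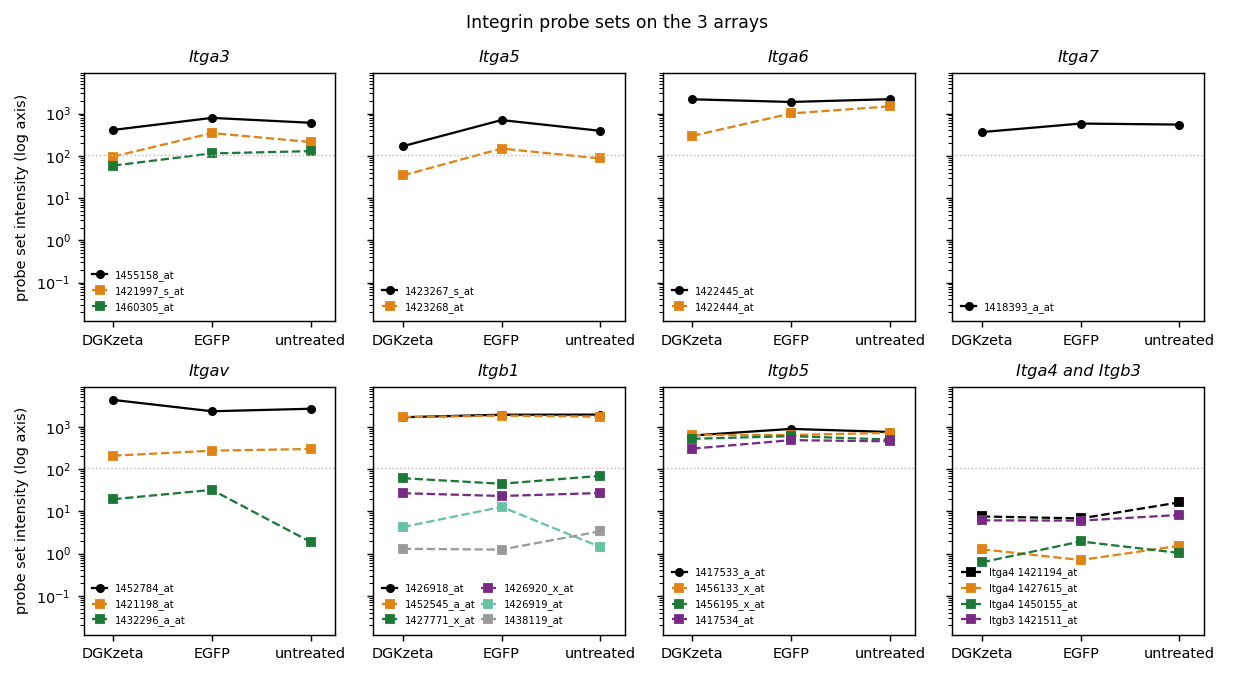
Intensity of each probe set of the 9 integrin genes (log axis) on the DGKzeta, EGFP and untreated arrays. Each panel is a gene, except the last, which holds Itga4 and Itgb3, solid lines join the values of the brightest probe set and dashed lines those of the others, and the dotted line is the floor of 107. Both Itga5 probe sets are lowest in DGKzeta cells, the brightest of Itgav is highest there at 4345, and Itga4 and Itgb3 stay under the floor throughout.

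Itga5, the fibronectin receptor chain, was the member with the lowest ratios in DGKzeta cells. Its brightest probe set, 1423267_s_at, had an intensity of 169 in DGKzeta cells, against 701 in EGFP cells and 390.2 in untreated cells. DGKzeta cells were the lowest of the 3 and EGFP cells the highest. The level was 4.16-fold below EGFP cells (log2 ratio -2.06) and 2.32-fold below untreated cells (log2 ratio -1.21). Among the 6434 genes measured on all 3 arrays, Itga5 ranked 6 from the lowest in the ratio to EGFP and 79 from the lowest in the ratio to untreated cells. The EGFP array was itself 1.80-fold above the untreated one, rank 46 from the highest in that ratio, and both ratios of DGKzeta share the DGKzeta array. The other probe set, 1423268_at, read 34.3 in DGKzeta cells, 148 in EGFP cells and 86.6 in untreated cells, with the EGFP array alone at the floor. It thus gives a bound of at least 1.38-fold lower than in EGFP cells and none against untreated cells. Without the floor its log2 ratios were -2.11 to EGFP and -1.34 to untreated cells, close to those of the brighter set. A probe set of suffix _s_at, as the brighter one is, can match transcripts of more than 1 gene, and without such sets Itga5 had no value on all 3 arrays.

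The laminin-binding alpha chains differed among themselves. Itga3, whose product binds laminins of basement membranes, was lowest in DGKzeta cells by all 3 of its probe sets. The brightest, 1455158_at, had 409.5 in DGKzeta cells, 789 in EGFP cells and 605 in untreated cells, log2 ratios of -0.95 to EGFP and -0.56 to untreated. The next, 1421997_s_at, was under the floor in DGKzeta cells at 96.2, against 345 in EGFP and 212 in untreated cells, and so at least 3.22-fold below EGFP and at least 1.98-fold below untreated cells. The last, 1460305_at, read 58.7 in DGKzeta cells, 114 in EGFP cells and 129 in untreated cells. The first 2 of these were higher in EGFP than in untreated cells, by 1.31-fold and 1.63-fold, as Itga5 was.

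Itga7, the alpha chain enriched in skeletal muscle, had 1 probe set with 364 in DGKzeta cells, 579.6 in EGFP cells and 548 in untreated cells. The DGKzeta value was the lowest, while EGFP and untreated cells lay 1.06-fold apart. The log2 ratio was -0.67 to EGFP and -0.59 to untreated cells, under the 2-fold rule in each case.

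Itga6 gave opposite answers from probe sets of the same gene. The brighter, 1422445_at, had 2175 in DGKzeta cells, 1881 in EGFP cells and 2189 in untreated cells, with log2 ratios of 0.21 to EGFP and -0.01 to untreated. The other, 1422444_at, had 296 in DGKzeta cells, 1006 in EGFP cells and 1480.0 in untreated cells, which is 3.40-fold below EGFP (log2 ratio -1.77), and a log2 ratio of -2.32 to untreated cells. Both sets were above the floor on all 3 arrays, and the platform annotation gives them the same source accession. The gap of 1.97 between their log2 ratios to EGFP was reached by the 2 brightest probe sets of 18 among 2251 genes with such a pair (0.800%), and the gap of 2.31 in the ratio to untreated cells by 27 of them. Whether Itga6 RNA was level or lower in DGKzeta cells is therefore not settled by these arrays.

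Itgav, the alpha chain of vitronectin receptors, was the member with the highest ratios, by its brightest probe set but not by its second. That set, 1452784_at, had 4345 in DGKzeta cells, 2338 in EGFP cells and 2681 in untreated cells, 1.86-fold above EGFP (log2 ratio 0.89) and 1.62-fold above untreated cells (log2 ratio 0.70). It ranked 34 from the highest of 6434 genes in the ratio to EGFP and 281 from the highest in that to untreated cells. The dimmer set, 1421198_at, pointed the other way, with 208 in DGKzeta cells, 273 in EGFP cells and 299 in untreated cells, log2 ratios of -0.39 and -0.53. A gap this wide in the ratio to EGFP, 1.29, was reached by 102 of the 2251 genes (4.53%).

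By their brightest probe sets both measured beta chains had log2 ratios to EGFP between -0.52 and -0.20. Itgb1, the shared partner of the laminin and fibronectin receptors, had 1689.6 in DGKzeta cells, 1937 in EGFP cells and 1949 in untreated cells by 1426918_at, and 1695, 1843 and 1738 in the same order by 1452545_a_at. Both sets were lowest in DGKzeta cells, with log2 ratios to EGFP of -0.20 and -0.12 and to untreated cells of -0.21 and -0.04. Under a scaling to equal medians of all named sets the log2 ratio of the first set was 0.17 to EGFP and 0.06 to untreated cells, where the medians of all genes were 0.35 and 0.25. These values lie within the SD of a single probe set, which was 0.40 on the log2 scale for DGKzeta over EGFP and 0.50 for DGKzeta over untreated. That SD comes from the 2 brightest probe sets of 2251 genes and covers different probes on the same RNA, not the spread between cultures.

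Itgb5, a beta chain that pairs with the alpha v chain, had 4 probe sets above the floor on all arrays, and their log2 ratios to EGFP ran between -0.67 and -0.00. The brightest, 1417533_a_at, had 624 in DGKzeta cells, 894 in EGFP cells and 756 in untreated cells, a log2 ratio of -0.52 to EGFP and -0.28 to untreated. The lowest ratios came from 1417534_at, with 304 in DGKzeta cells, 484 in EGFP cells and 454 in untreated cells. The 2 sets of suffix _x_at, which can bind unrelated sequences, gave log2 ratios to EGFP of -0.00 and -0.21 and to untreated cells of -0.18 and 0.06. All 4 sets were lower than in EGFP cells and 3 of 4 lower than in untreated cells, by less than 2-fold each.

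**Figure D2:**
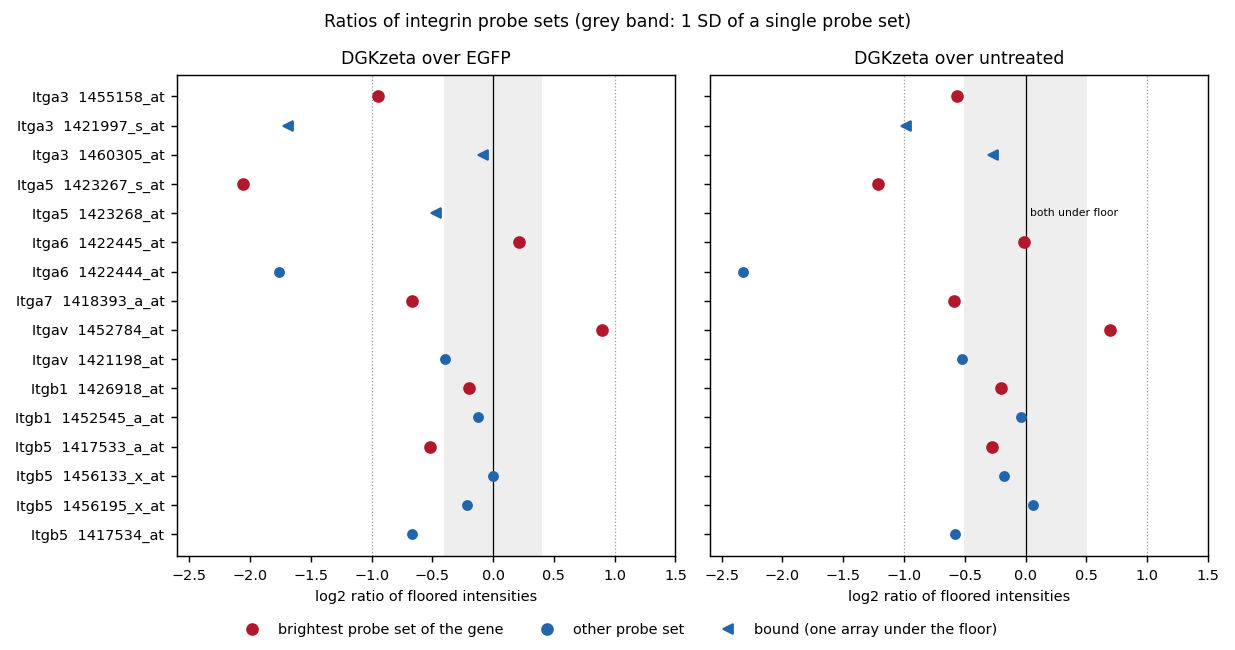
Log2 ratios of the 16 integrin probe sets that reached the floor on any array, DGKzeta over EGFP on the left and DGKzeta over untreated on the right. Red points are the brightest set of a gene, blue points the others, triangles are bounds with 1 array under the floor, the grey band is 1 SD of a single probe set (0.40 and 0.50) and dotted lines mark 2-fold. The brightest set of Itga5 and the second set of Itga6 lie past 2-fold in both panels. The sets of Itgav fall on both sides of 0 in both panels, and those of Itga6 on the left only.

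Counted over genes by their brightest probe set, 1 of 7 members was lower by at least 2-fold and 0 were higher by as much in DGKzeta than in EGFP cells, where 2.64% and 0.264% of the 6434 genes were. The same count against untreated cells was 1 lower and 0 higher, where 2.52% and 1.17% of genes were, and 1 member, Itga5, was at least 2-fold below both controls, as were 1.37% of genes. DGKzeta cells had the lowest value of the 3 arrays for 5 of the 7 members, beside 41.1% of all genes. The median log2 ratio of the 7 members was -0.52 to EGFP and -0.28 to untreated cells, beside -0.01 in each comparison over all genes. Of the 13 sets at or above the floor on each array, 11 had a ratio to EGFP below 0, where 52.9% of all probe sets did, and 2 were at least 2-fold lower, where 3.74% were. The same scaling to equal medians raised the median of all genes by 0.36 in the ratio to EGFP and by 0.26 in that to untreated cells. The median of the members was then -0.16 and -0.01, below 0.35 and 0.25 over all genes.

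Between EGFP and untreated cells all 7 measured members were within 2-fold. Against untreated cells 0 of 7 members were higher by 2-fold or more and 0 lower by as much, where 0.295% and 0.14% of genes were, and 4 of 7 ratios were above 0, as were 52.7% over all genes. The highest was that of Itga5 at 0.85 and the lowest that of Itga6 at -0.22 (log2 ratios), with a median of 0.08, beside 0.01 over all genes. For a single probe set the SD was 0.27 in this comparison, which Itga5 and Itga3 (0.38) exceed.

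Among the genes that work with integrins, adaptors, signalling enzymes and ligands each had a median ratio below 0 in DGKzeta cells as deposited, with few genes past 2-fold. Of 23 activators and adaptors, the proteins that bind integrin tails or link them to actin, 17 were measured on all 3 arrays, 11 of them with a ratio to EGFP below 0 and 6 above, where 51.2% and 48.8% of all genes were. The list had a median log2 ratio of -0.25 to EGFP and -0.27 to untreated cells, beside -0.01 in each comparison over all genes. Under a scaling to equal medians of all named sets the list was at 0.12 and -0.01, where all genes were at 0.35 and 0.25. Its member past 2-fold was Tgfb1i1, the paxillin relative Hic-5, with 409.9 in DGKzeta cells, 935 in EGFP cells and 1008 in untreated cells. Of all genes 2.64% were at least 2-fold below EGFP cells and 2.52% as far below untreated cells. Tln1, which encodes the integrin activator talin, had 1233 in DGKzeta cells, 2405 in EGFP cells and 2129 in untreated cells. Tns1, the actin-binding adaptor tensin 1, had 386 in DGKzeta cells, 693 in EGFP cells and 722 in untreated cells. For Zyx, a zyxin protein of mature adhesions, the values were 2456 in DGKzeta, 4144 in EGFP and 3888 in untreated cells. By these brightest sets each of the 4 had its lowest value in DGKzeta cells, and EGFP and untreated cells were within 1.13-fold of each other. The other measured set of Tns1 had 238 in DGKzeta cells, 557 in EGFP cells and 1245 in untreated cells.

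Second probe sets of adaptor genes gave lower ratios than the brightest ones. The brightest set was chosen with the DGKzeta array included, and the second was the brightest of the remaining sets on both control arrays. Of sets with similar intensity, the one dimmer on the DGKzeta array tends to be left as the second. The choice can thus itself lower the ratios of second sets, and its part was not tested. In 7 adaptor genes with a second set the median log2 ratio to EGFP was 0.13 by the brightest and -0.85 by the second. Of these 7 second sets 3 were at least 2-fold lower, where 7.44% of 2461 second sets of all genes were. Vcl, vinculin, had 5809 in DGKzeta cells, 4601 in EGFP cells and 5641 in untreated cells by its brightest set and 112, 348 and 479 in the same order by the other, named after its values were seen. Over all 2461 genes the medians were 0.06 and -0.13. The 3' to 5' ratio of the Actb control was 2.55 on the DGKzeta array, 1.43 on the EGFP array and 1.27 on the untreated array. That of Gapdh was 0.931, 0.902 and 0.841 in the same order. A relation of either ratio to the second sets was not tested.

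Of 22 signalling enzymes downstream of integrins 18 were measured, 12 with a ratio to EGFP below 0, where 51.2% of all genes were. By their brightest sets 0 of the enzymes were past 2-fold either way, where 2.64% of all genes were lower and 0.264% higher by as much. The median log2 ratio of the enzymes was -0.13 to EGFP and -0.19 to untreated cells. Under a scaling to equal medians of all named sets it was 0.23 and 0.07, where the medians of all genes were 0.35 and 0.25. By brightest sets Git1, an Arf GTPase-activating protein, had the log2 ratio to EGFP furthest from 0, at -0.97. It had 189 in DGKzeta, 369 in EGFP and 259 in untreated cells. Next was its binding partner Arhgef7, an exchange factor for Rac and Cdc42, at -0.94 (254, 487 and 504 in the same order). The tyrosine kinase gene Src had 219.9 in DGKzeta, 382 in EGFP and 297 in untreated cells, and its relative Fyn 149, 241 and 288. The other measured set of Fyn gave 179 in DGKzeta, 141 in EGFP and 132 in untreated cells, the opposite direction. Other sets measured on all arrays put Bcar1 at -1.01 and Arhgap5 at 1.11 (log2 ratios to EGFP), in place of 0.11 and 0.59. Both genes were named after their values were seen.

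The list of extracellular ligands held 24 symbols, among them old and new symbols of the same gene (Cyr61 and Ccn1, Ctgf and Ccn2), and 20 had a probe set. Of these genes 14 were measured, 11 of them below EGFP cells, where 51.2% of all genes were. The median log2 ratio of the ligands was -0.14 to EGFP and -0.35 to untreated cells. Under a scaling to equal medians of all named sets it was 0.23 and -0.08, where the medians of all genes were 0.35 and 0.25. Fn1, fibronectin, the ligand of the alpha 5 beta 1 pair, had 8823 in DGKzeta cells, 9307 in EGFP cells and 10252 in untreated cells by its brightest probe set, named after its values were seen as the ligand of Itga5. Its other set gave 194 in DGKzeta cells, 496 in EGFP cells and 525 in untreated cells, a log2 ratio of -1.36 to EGFP in place of -0.08. The 2 ligands past 2-fold against EGFP were Tgfb1, a growth factor whose latent form is bound by alpha v integrins (273 in DGKzeta, 675 in EGFP and 385 in untreated cells), and Lama5, a laminin alpha chain (315, 644 and 396 in the same order). Of all genes 2.64% were at least 2-fold lower than in EGFP cells. The other measured set of Lama5 had 191 in DGKzeta cells, 234 in EGFP cells and 201 in untreated cells, a log2 ratio of -0.29 to EGFP. The laminin chains Lamc1 and Lamb2 were at -0.90 and -0.82 (log2 ratios to EGFP). The chain Lamb1, named after its values were seen, was higher by its brightest set, with 2939 in DGKzeta cells, 1972 in EGFP cells and 1920.2 in untreated cells, and at 0.30 and -0.70 by its other sets (log2 ratios to EGFP). Edil3, a secreted ligand of alpha v integrins, had 246 in DGKzeta cells, 171 in EGFP cells and 86.2 in untreated cells, at least 2.30-fold above the last.

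**Figure D3:**
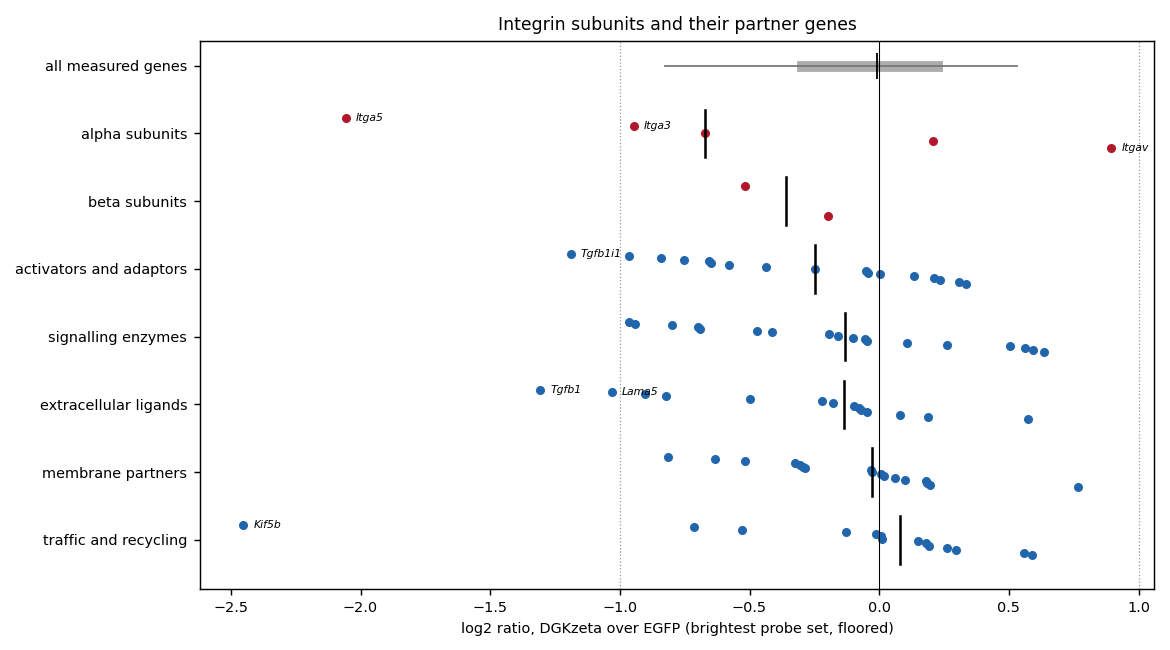
Log2 ratio of DGKzeta over EGFP for genes measured on all 3 arrays, by their brightest probe set. The top row gives all measured genes (median, 25th to 75th percentile as the thick bar, 5th to 95th as the thin line), the rows below give the integrin chains (red) and partner lists (blue) with a point per gene and a black bar at the median, and dotted lines mark 2-fold. Itga5 lies at -2.06, Itga3 at -0.95 and Itgav at 0.89, outside the 5th to 95th percentile of all genes (-0.82 to 0.53).

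Of 18 other integrin subunits 13 had a probe set and 11 of these were under the floor on every array. The exceptions were Itgb7, a leukocyte beta chain, with 259 in DGKzeta cells, 347 in EGFP cells and 289.7 in untreated cells, and the platelet chain Itga2b, with 114, 118 and 93.6 in the same order.

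Across the alternatives in scaling, floor and choice of probe set, members differed in how far their values moved. Itga3 was below EGFP cells in the 10 alternatives that gave it a value, with log2 ratios between -1.69 and -0.49, and Itga5 in 8 of 8, between -2.06 and -0.32. Itga7 was below EGFP in 9 of 9 alternatives, between -0.67 and -0.05, and Itgb5 in 10 of 10, between -0.52 and -0.00, so that both came close to 0 in some. Not every alternative could change a value. A lower floor or none left each member's ratio as it was, and Itga7 had 1 probe set, so its mean over sets was the same. Itgav was above EGFP in 9 of 10 alternatives, with -0.39 by its second probe set as the exception. Itga6 was between -1.77 and 0.57. Itgb1 was between -0.24 and 0.17, above 0 only under the scaling to equal medians of all named sets, which raises all genes.

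**Figure D4:**
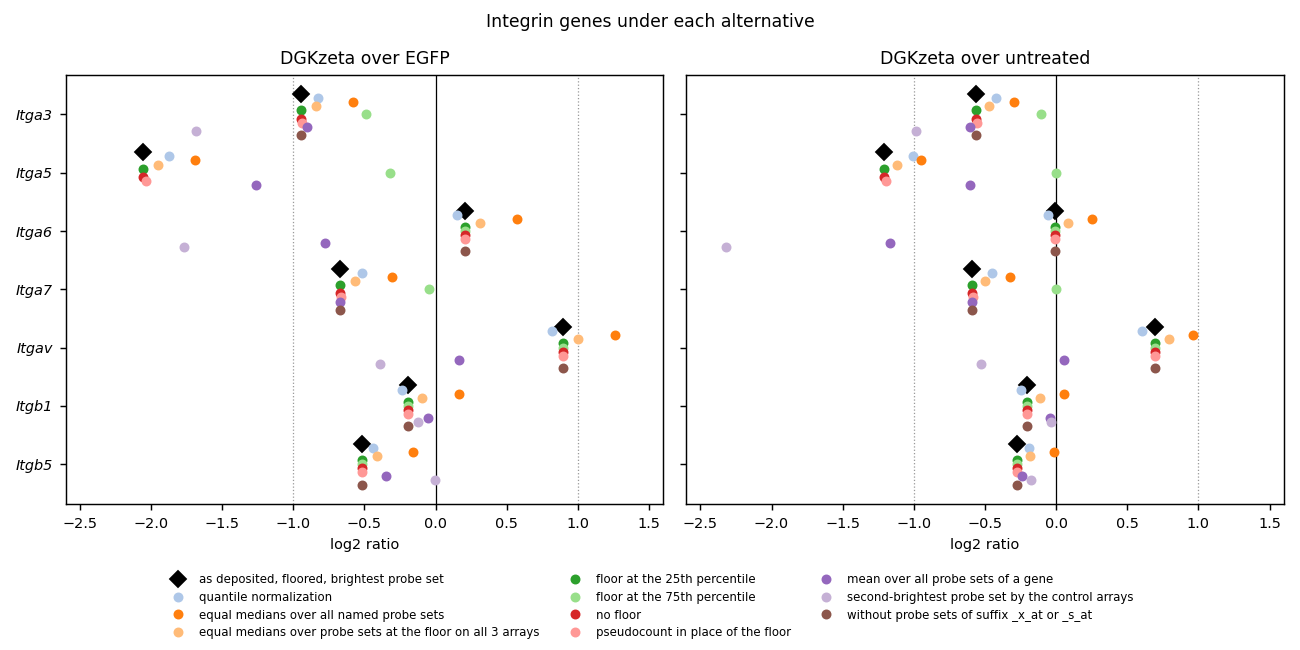
Log2 ratios of the 7 measured integrin genes under each alternative, DGKzeta over EGFP on the left and DGKzeta over untreated on the right. Black diamonds are the values as reported, coloured points the alternatives, and dotted lines mark 2-fold. Itga3, Itga5 and Itga7 stay below 0 on the left, whereas Itga6 lies between -1.77 and 0.57.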

How the data were processed

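RNA of 3 C2C12 samples was labelled with biotin in 1 cycle and measured on 1 Affymetrix array each, as the labels' protocols describe. The authors deposited 1 linear intensity per probe set; per the submitters' processing notes the software was MAS5. The sources used here do not give the scaling target or detection calls. Each array has a mean of 499.9 to 500.0 between its 2nd and 98th percentile, so no further scaling was applied. The number of arrays limits the precision.

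Probe sets were named by the platform annotation (20380 with 1 symbol, 691 with several, 1555 with none, 64 controls), and 20351 matched a gene ID of the RefSeq table, with 0 symbols differing. A gene was represented by its brightest probe set (mean log2 over the 3 arrays), floored at the 50th percentile of all values. Counts and medians are over genes measured on all 3 arrays. Ratios of at least 2-fold were counted, and no test was run. The members and the 8 gene lists were chosen with earlier results of these data known. Named are all members, up to 4 members of each list with the largest absolute log2 ratio to EGFP, and those at least 2-fold apart. Also named are the 3 genes nearest in pattern to a member at least 2-fold apart. Alternatives changed the scaling, the floor, the probe sets that stand for a gene and the fold. The counting was tested on simulated data with changes only in bright genes and with little noise, which checks the code and not the calls made here. The tools were numpy 2.4.6 and pandas 2.3.3 under Python 3.11.15, with figures by matplotlib 3.10.9.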

Additional observations from a re-analysis of the deposited data

How the results depend on the processing

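No paired analysis was possible because each group has 1 array, and no replicate could be left out. Of 503 values recomputed under alternatives, 458 moved by less than the SD of a single probe set or kept their count within 1.5 times. The scaling to equal medians shifted ratios to EGFP by 0.36 over all genes, under the SD of 0.40, so no such ratio could count as moved. By that scaling the medians to EGFP of adaptors, signalling enzymes, ligands and membrane partners went from below to above 0. The median of all genes was then 0.35, and these list medians are among the 458. A lower floor or none left the ratios of member genes as they were. Scaled to equal medians of all named sets, 0 members were at least 2-fold below untreated cells or both controls and 1, Itgav at 1.26 (log2), above EGFP. With a floor at the 75th percentile, or without sets of suffix _x_at or _s_at, 0 members were at least 2-fold lower in any comparison of DGKzeta, since Itga5 then lay mostly under the floor or lost its set. The mean over probe sets left 0 below both controls, with Itga5 at -1.26 to EGFP and -0.61 to untreated cells, and put Itga6 at -0.78 and Itgav at 0.17 to EGFP. The 1 member at least 2-fold below untreated cells was then Itga6, at -1.17, in place of Itga5. By second sets 2 members, Itga3 and Itga6, were at least 2-fold lower than EGFP. The medians to EGFP were then -0.85 for adaptors, -0.60 for ligands, -0.44 for membrane partners and -0.11 for traffic genes. The median for signalling enzymes went the other way, at 0.18 beside -0.05 by the brightest sets of the same 10 genes. That of the 2 beta members was -0.06 beside -0.36. To untreated cells the median for adaptors was -1.81. A 1.5-fold rule gave 3 members lower and 1 higher than EGFP, 2 lower and 1 higher than untreated cells, 2 lower and 1 higher than both, and 1 higher in EGFP than in untreated cells. A 3-fold rule gave 0 below untreated cells or both. The share of all genes past 1.5-fold or 3-fold was not counted, so these counts of members stand without it. Over all genes the 5th and 25th percentiles of the log2 ratio to EGFP were -0.82 and -0.30. Taking members at the floor on at least 1 array, chosen after seeing the data, could not change a count of members, since it takes the same member genes. Itga3, Itga5 and Itga7 were below EGFP in all settings that gave a value, and Itgb5 too. These settings are not separate checks, since several could not change a value, as for Itga7 with its 1 probe set.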

Other observations

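The pattern of Itga5 over the 3 arrays, lowest in DGKzeta and highest in EGFP cells, was compared with that of every other gene measured on all 3 arrays by the Euclidean distance of log2 values centred on the mean of the arrays. The nearest were Nfic, a transcription factor of the nuclear factor I family, at a distance of 0.20, with 577 in DGKzeta cells, 2235 in EGFP cells and 1509.9 in untreated cells, Thop1, a metallopeptidase, at 0.21, and Ncln, a protein of the endoplasmic reticulum, at 0.26. With 3 arrays many genes can lie close to such a pattern. How many do was not counted, and the distance is a description.

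Membrane partners of integrins, such as tetraspanins and syndecans, were near level by their brightest probe sets but not by their second sets. In 7 of these genes with a second set the median log2 ratio to EGFP was 0.01 by the brightest and -0.44 by the second. Over all 2461 genes with a second set the medians were 0.06 and -0.13. Of 17 measured genes 9 had a ratio to EGFP below 0, where 51.2% of all genes did. The 17 genes had a median log2 ratio of -0.03, or 0.33 under a scaling to equal medians of all named sets. By that scaling the median of all genes was 0.35. Cd44, the hyaluronan receptor, had 2333 in DGKzeta cells, 4107 in EGFP cells and 5211 in untreated cells, and Sdc4, a syndecan of focal adhesions, 223, 279 and 503 in the same order. Both were at least 2-fold below untreated cells, as were 2.52% of all genes. Sdc1, another syndecan, had 2517 in DGKzeta cells, 1478 in EGFP cells and 1584 in untreated cells, but its other sets above the floor on each array had log2 ratios to EGFP of -0.02 and -0.20 in place of 0.77. Bsg (basigin) was at -0.63 and the tetraspanin gene Cd82 at -0.52. Genes of integrin traffic and recycling had a median of 0.08, with 9 of 14 above 0, where 48.8% of all genes were. Rab5a and Ehd1, which act on endosomes, were at 0.56 and 0.59, Rab11b at -0.71. The other sets of Ehd1 gave -0.02, -0.32 and -0.86 in place of 0.59. The kinesin gene Kif5b was at -2.45 by its brightest set, with other sets measured on all arrays between -0.43 and 0.72.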
